A study of Mus musculus with 6 samples.

Results

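The genes described here are 10 mouse genes of cytokine signalling, namely the feedback inhibitors Cish, Socs1, Socs2 and Socs3, the kinase gene Pim1, the transcription factor genes Stat3, Stat5a and Stat5b, and the kinase genes Jak1 and Jak2. They were chosen by name from the 54532 genes of a table of RNA sequencing counts. All 10 were among the 15938 genes whose counts were high enough to be tested. The counts came from CD4+ T cells of the spleens of male C57BL/6 mice aged 6 to 8 weeks, isolated by negative selection on magnetic beads. The cells were stimulated through CD3 and CD28 and cultured under Th1 conditions, which here means IL-2, IL-12p70 and an antibody against IL-4. In 3 cultures the medium held 500 nM ALX-5407, which inhibits GlyT1, a transporter of glycine, and in 3 cultures it held vehicle (0.1% DMSO). The comparison asks how these genes differ between Th1 cells with and without the inhibitor. The labels give 72 h under Th1 conditions with ALX-5407, whereas the study's methods give harvest after 72 h in 1 section and an exposure of 24 h in another, and the labels describe poly-T capture of messenger RNA where the methods describe depletion of ribosomal RNA. The labels call the 3 libraries of a group biological replicates, but do not say whether each came from a different animal, so the p-values measure the spread between these cultures.

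Cytokines such as IL-2 and IL-12 bind receptor chains that carry Janus kinases (JAK1, JAK2, JAK3 and TYK2) on their inner side. The activated kinases phosphorylate STAT proteins, which pair, enter the nucleus and switch on target genes. Among the best known targets are the inhibitors of the SOCS family, including CISH, which bind the receptors or kinases and end the signal, and the PIM kinases, which promote survival and growth. In T cells IL-2 acts mainly through JAK1, JAK3 and STAT5, IL-12 through JAK2, TYK2 and STAT4, IFN-γ through JAK1 and JAK2, and IL-6, IL-21 and IL-10 through STAT3.

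The total counts were 33432304, 32518060 and 30801753 in the vehicle libraries and 34735568, 36727788 and 34142475 in the ALX-5407 libraries. Levels are given as CPM, counts scaled to library size, with sizes adjusted by TMM factors between 0.965 and 1.03. A gene is called higher or lower where edgeR's quasi-likelihood test gives an adjusted p under 0.05 (Benjamini-Hochberg, all genes tested). The 10 CD4 T cell markers examined (Cd3d, Cd3e, Cd3g, Cd4, Trac, Trbc2, Cd5, Cd28, Lck and Cd247) summed to 3359 ± 75.4 CPM with vehicle (SD, n = 3) and 3297 ± 21.5 CPM with ALX-5407 (SD, n = 3). Of the 10, 2 were called higher and 4 lower, and none was at 0. Cd28, the most abundant over all libraries, was at 514, 547 and 544 CPM with vehicle and 732, 738 and 830 CPM with ALX-5407, and Cd4, the most abundant in the vehicle libraries, at 663, 703 and 571 CPM and 468, 481 and 460 CPM. The 6 Th1 markers (Tbx21, Ifng, Cxcr3, Il12rb2, Il18r1 and Stat4) were all present, with Ifng as the most abundant over all libraries. They summed to 1357, 1424 and 1566 CPM with vehicle and 1114, 1075 and 1086 CPM with ALX-5407. Of the 6, 1 was called higher, namely Tbx21, and 3 lower, namely Ifng, Il18r1 and Stat4.

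Some features of the libraries moved with the treatment. Mitochondrial genes held 2.67%, 3.12% and 2.79% of the counts in the vehicle libraries and 2.00%, 1.94% and 2.05% in the ALX-5407 libraries. Ribosomal protein genes held 9.77%, 9.88% and 10.2% with vehicle and 7.61%, 7.61% and 6.69% with ALX-5407. With mitochondrial and ribosomal protein genes left out before the fit, a choice made after these shares were seen, the log2 fold changes of the 10 genes moved by at most 0.0051.

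Across all genes the response was broad. Of the 15938 genes tested, 47.7% were called, 24.5% as higher and 23.2% as lower with ALX-5407. Against this background 7 of the 10 genes were called. Socs2, Pim1, Socs1, Cish and Jak1 rose, which is 5 of 10, and Stat3 and Stat5b fell, which is 2 of 10. Socs3, Stat5a and Jak2 were not called. In 9 of the 10 genes the CPM values of the groups did not overlap, a pattern found in 55.5% of all genes tested, and Jak2 was the exception. The changes were moderate in size. None of the 10 genes passed the study's additional threshold of an absolute log2 fold change over 1 in edgeR, DESeq2 or limma-voom, also at an unadjusted p under 0.05, whereas 10.04% of all genes passed it in edgeR at an adjusted p under 0.05. The median absolute log2 fold change was 0.29 for the 10 genes and 0.36 for all genes tested.

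**Figure D1:**
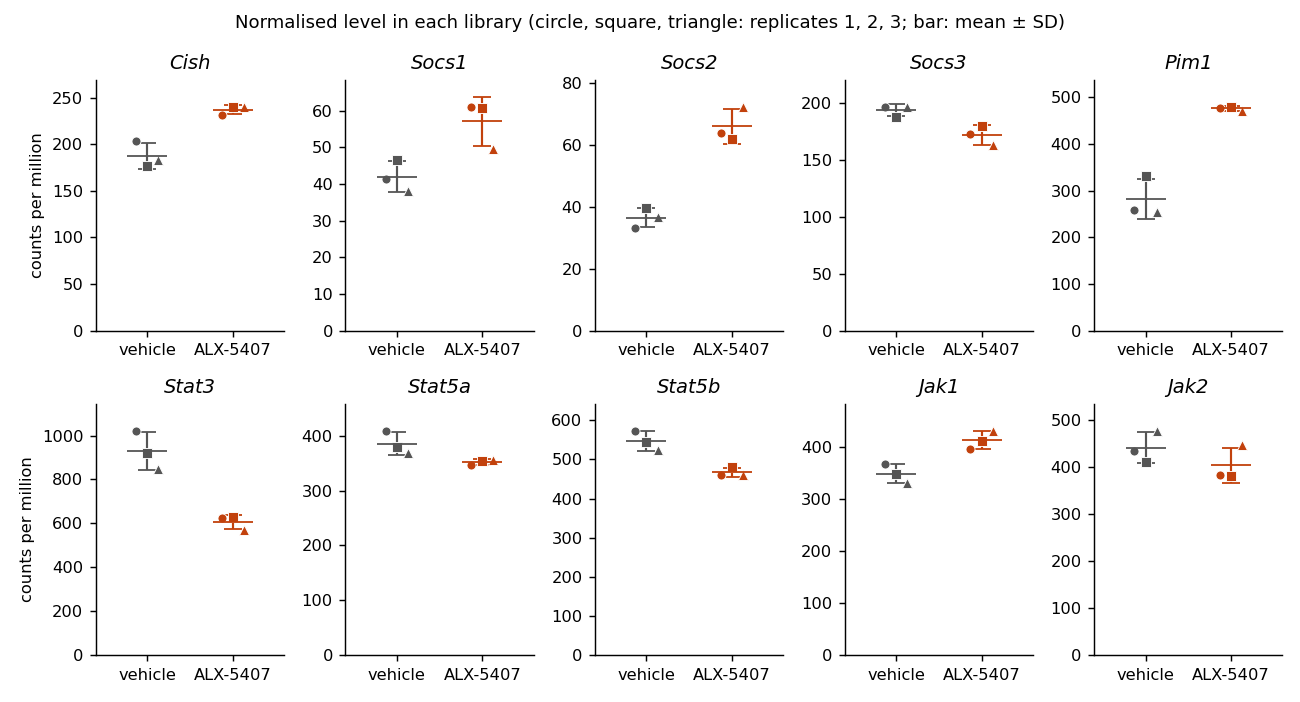
Normalised level of the 10 genes in each library, in CPM on axes that start at 0, with vehicle in grey and ALX-5407 in orange. Symbols mark replicates 1, 2 and 3, and bars give the mean and SD of 3 libraries. The groups are apart in every panel except that of Jak2.

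Of the feedback inhibitors, Cish encodes CISH, an SH2 protein induced by STAT5 that restrains IL-2 receptor and T cell receptor signalling. The gene is found at 107296026 to 107302784 of chromosome 9, + strand (GRCm38). Cish stood at 203, 177 and 183 CPM in the vehicle libraries and at 231, 240 and 240 CPM in the ALX-5407 libraries. The lowest ALX-5407 library was above the highest vehicle library. The level rose 1.26-fold (log2 fold change 0.34, standard error 0.0728, 95% interval 0.18 to 0.49, adjusted p = 0.00114).

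Socs1, at 10782240 to 10785536 of chromosome 16, - strand, encodes a direct inhibitor of JAK kinases that is best known for limiting IFN-γ signalling. It stood at 41.3, 46.6 and 38.0 CPM with vehicle and 61.1, 60.6 and 49.5 CPM with ALX-5407. ALX-5407 replicate 3 was the lowest of its group and lay just above the highest vehicle library, so the groups did not overlap. Socs1 rose 1.36-fold (log2 fold change 0.44, standard error 0.0972, 95% interval 0.24 to 0.65, adjusted p = 0.00133).

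Socs2, which encodes a SOCS protein known above all for limiting growth hormone signalling through STAT5, changed most among the 10 genes. Its gene spans 31819 bases of chromosome 10, - strand, from 95385362 to 95417180, and is annotated with 14 transcripts in GENCODE M21. The raw counts were 1085, 1239 and 1126 with vehicle and 2258, 2305 and 2539 with ALX-5407. In normalised terms these were 33.3, 39.5 and 36.6 CPM against 63.9, 61.8 and 72.4 CPM, with every ALX-5407 library far above the vehicle range. Socs2 rose 1.81-fold (log2 fold change 0.86, standard error 0.0879, 95% interval 0.67 to 1.04, adjusted p = 8.82e-07). By the size of its fold change it ranked 2567 among the 15938 genes tested.

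Socs3 differed from the other SOCS genes of the group. It encodes the inhibitor that acts on receptors with the gp130 chain and thereby limits STAT3, and its position is 117966079 to 117970047 of chromosome 11, - strand. Its level was 197, 188 and 197 CPM with vehicle and 173, 180 and 163 CPM with ALX-5407. All 3 ALX-5407 libraries were below all vehicle libraries, but the difference was small, with a log2 fold change of -0.17 (standard error 0.0697, 95% interval -0.32 to -0.02). The adjusted p was 0.0525, and it ranged from 0.0137 to 0.200 over 19 alternative settings, of which 11 called the gene lower. DESeq2, the tool of the study, was among those (adjusted p = 0.0257).

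Promoter sequences were searched for the letters TTCNNNGAA, the palindromic spacing known for STAT3 and STAT5, which reads the same on both strands. Windows of 300 bases from RefSeq (GRCm38.p6), from 250 bases before to 50 bases after each transcript start, were matched for 9 of the 10 genes, all but Socs2. The letters occurred in 8.30% of all 32851 windows, and in 0.457% they occurred 2 times or more. Among the 9 genes, Cish and Socs3 held them. The Cish match is double, with the first motif starting at base 1 of the RefSeq transcript, the second at base 12, and 2 bases between them. It lies at chr9:107296654-107296683 on the + strand, and all 30 bases are exon sequence in GENCODE. The Socs3 match starts 154 bases before the transcript start, at chr11:117969502-117969530 on the - strand, outside the GENCODE exons of the gene. Both stretches are given 5′ to 3′ with the motif in capitals, since they belong to a gene that rose and to a gene that was not called.
Cish: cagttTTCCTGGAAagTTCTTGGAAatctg
Socs3: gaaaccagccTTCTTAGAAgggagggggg
In the windows of Socs1, Pim1, Stat3, Stat5a, Stat5b, Jak1 and Jak2 these letters were not found. The same motif with 1 more base in its middle, the spacing known for STAT6, was in none of the 12 windows of the 9 genes and in 6.95% of all windows. A match is only a description of the letters, and binding was not measured.

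Pim1 encodes a serine/threonine kinase that is induced by cytokines through STAT5 and STAT3 and supports survival and growth of lymphocytes. It is on chromosome 17, + strand, at 29490812 to 29496111. The counts were 8441, 10387 and 7833 with vehicle and 16858, 17903 and 16502 with ALX-5407. The corresponding levels were 259, 331 and 255 CPM against 477, 480 and 471 CPM. The vehicle libraries scattered, with replicate 2 on top, whereas the ALX-5407 libraries lay within a narrow band well above them. Pim1 rose 1.69-fold (log2 fold change 0.76, standard error 0.0905, 95% interval 0.57 to 0.95, adjusted p = 4.3e-06). The antisense gene Gm26885, which shares 488 exon bases with Pim1, had at most 3 counts in any library.

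The other PIM kinases moved the opposite way. Pim2 was at 238, 240 and 188 CPM with vehicle and 155, 170 and 149 CPM with ALX-5407 (log2 fold change -0.49, standard error 0.0911, adjusted p = 0.000322). Pim3 was at 115, 89.5 and 90.0 CPM with vehicle and 83.9, 83.8 and 69.8 CPM with ALX-5407 (log2 fold change -0.31, standard error 0.0996, adjusted p = 0.0175). Both fell without overlap between the groups. The call of Pim3 was lost without vehicle replicate 1 (adjusted p = 0.128) and without ALX-5407 replicate 3 (adjusted p = 0.111), and the adjusted p ranged from 0.00459 to 0.128 over the libraries left out in turn.

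Among the STAT genes, Stat3 fell most of the 10 genes described. STAT3 is activated by IL-6, IL-21, IL-23 and IL-10 and is needed for the Th17 and follicular helper programmes. Stat3 stood at 1021, 919 and 847 CPM with vehicle and 622, 630 and 571 CPM with ALX-5407. The highest ALX-5407 library was well under the lowest vehicle library. The level was 0.654 times that of vehicle (log2 fold change -0.61, standard error 0.0798, 95% interval -0.78 to -0.44, adjusted p = 1.06e-05).

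STAT5A and STAT5B are close relatives that carry the IL-2 signal, and their genes are neighbours of Stat3 on chromosome 11. Stat5b takes up 100780731 to 100850724 (- strand), Stat5a 100859351 to 100885169 (+ strand) and Stat3 100885098 to 100939540 (- strand). Stat5b was at 573, 545 and 524 CPM with vehicle and 461, 480 and 459 CPM with ALX-5407. It fell by 0.23 on the log2 scale (standard error 0.0690, 95% interval -0.38 to -0.08, adjusted p = 0.0116), with no overlap between the groups. The call was lost without ALX-5407 replicate 1 (adjusted p = 0.0646), and the adjusted p ranged from 0.00148 to 0.0646 over the libraries left out in turn.

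Stat5a was at 409, 380 and 368 CPM with vehicle and 347, 354 and 356 CPM with ALX-5407. The groups lay next to each other without overlap, and the difference was not called (log2 fold change -0.13, standard error 0.0695, 95% interval -0.28 to 0.02, adjusted p = 0.139). Without vehicle replicate 3 it was called lower (adjusted p = 0.0282), and over 19 alternatives, 1 of which is the sum with Stat5b, the adjusted p ranged from 0.0282 to 0.422. With the counts of Stat5a and Stat5b summed, the pair fell by 0.19 on the log2 scale (standard error 0.0691, adjusted p = 0.0342). The transcripts of Stat5a and Stat5b share 608 stretches of 50 bases, which is 8.21% of those of Stat5a and 10.98% of those of Stat5b. How reads with several matches were counted is not given in the sources used here, so the division of counts between these genes is uncertain. Stat5a and Stat3 overlap at their 3′ ends by 72 bases on opposite strands, 1.01% and 0.756% of their exon bases, and whether strand was used in counting is not given either.

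Other STAT genes, none of which belongs to the 10, changed in both directions. Stat4, which carries the IL-12 signal that drives Th1 differentiation, was at 57.4, 61.6 and 72.8 CPM with vehicle and 29.0, 28.7 and 28.3 CPM with ALX-5407. Its level was 0.448 times that of vehicle, the largest change of the family genes named here (log2 fold change -1.16, standard error 0.0908, adjusted p = 5.55e-08). Stat6, the mediator of IL-4 signals, fell by 0.25 on the log2 scale (adjusted p = 0.00564). Stat2, which acts downstream of type I interferon, was at 71.4, 73.2 and 68.6 CPM with vehicle and 96.4, 88.1 and 90.4 CPM with ALX-5407 and rose by 0.37 on the log2 scale (adjusted p = 0.000510). In bulk RNA of this kind, fewer cells of a type and less RNA per cell cannot be told apart.

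Jak1, the kinase shared by the receptors for IL-2, IL-6, IL-10 and interferons, rose, and Jak2 was not called. The Jak1 gene is on chromosome 4, - strand, at 101152367 to 101265282. It stood at 366, 347 and 330 CPM with vehicle and 396, 411 and 430 CPM with ALX-5407. Jak1 rose 1.18-fold (log2 fold change 0.24, standard error 0.0712, 95% interval 0.09 to 0.40, adjusted p = 0.00948), with all ALX-5407 libraries above all vehicle libraries.

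Jak2, which serves the IL-12 and IFN-γ receptors, is on chromosome 19, + strand, at 29251828 to 29313080. It was at 435, 412 and 477 CPM with vehicle and 383, 381 and 447 CPM with ALX-5407. ALX-5407 replicate 3 was above 2 of the vehicle libraries, so the groups overlapped. The difference was not called in the reported fit (log2 fold change -0.13, standard error 0.0817, 95% interval -0.30 to 0.04, adjusted p = 0.213) or in any of the 19 alternatives. Over the libraries left out in turn, the log2 fold change of Jak2 ran from -0.202 to -0.084, with adjusted p-values from 0.0640 to 0.544.

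Of the other JAK genes, Jak3, the partner of the common γ chain, was at 810, 735 and 802 CPM with vehicle and 720, 701 and 616 CPM with ALX-5407. It fell by 0.20 on the log2 scale (standard error 0.0773, adjusted p = 0.0383). Tyk2, the second kinase of the IL-12 receptor, was at 86.3, 72.4 and 78.8 CPM with vehicle and 93.0, 92.9 and 87.8 CPM with ALX-5407, a rise of 0.20 on the log2 scale (standard error 0.0777, adjusted p = 0.0399). Both calls depended on the setting. That of Jak3 was lost with libraries scaled by their totals alone (adjusted p = 0.125) and when vehicle replicate 1 or any ALX-5407 replicate was left out, with adjusted p-values up to 0.184. That of Tyk2 was lost in DESeq2 (adjusted p = 0.0571), under RLE and upper quartile scaling (adjusted p = 0.0558 and 0.127), with a filter on CPM (adjusted p = 0.0550) and among protein-coding genes (adjusted p = 0.0973). It was also lost without vehicle replicate 2 or 3 or ALX-5407 replicate 1 or 2, with adjusted p-values up to 0.235.

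**Figure D2:**
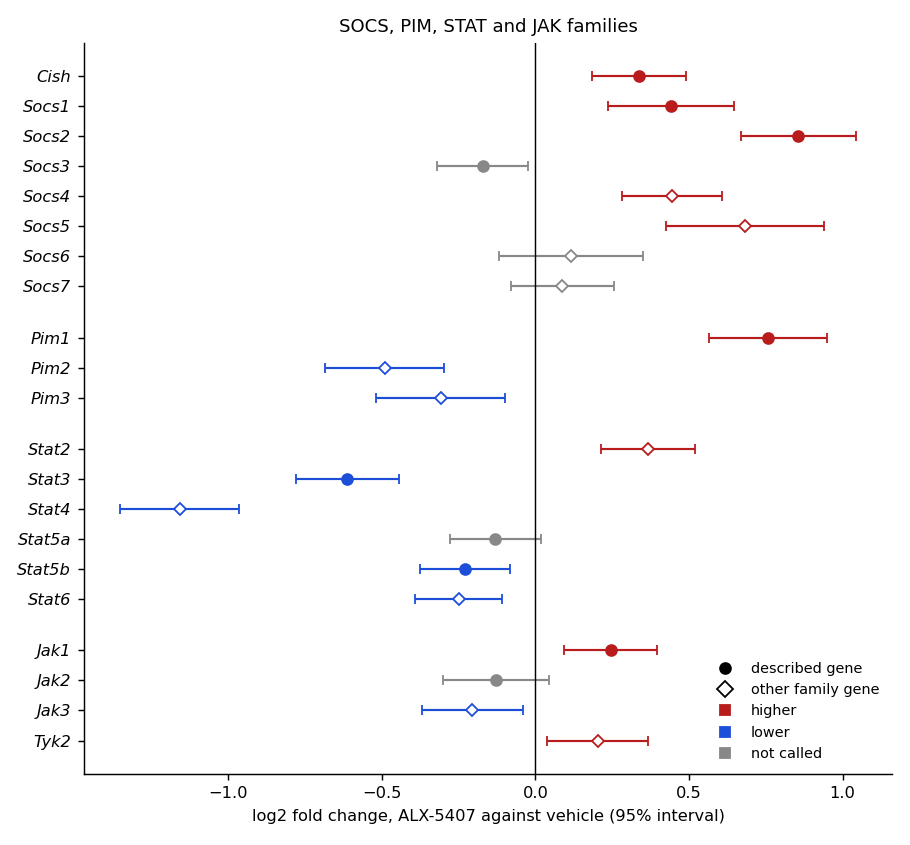
Log2 fold change of JAK, STAT, SOCS and PIM genes, ALX-5407 against vehicle, with its 95% interval from edgeR. Filled circles are the 10 genes described and open diamonds the other family genes, with red for higher, blue for lower and grey for not called. Socs2 and Pim1 lie farthest to the right, Stat4 and Stat3 farthest to the left.

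The remaining SOCS genes rose or were not called. Socs4, thought to act on EGF receptor signalling, was at 44.5, 46.4 and 47.9 CPM with vehicle and 59.0, 63.4 and 66.5 CPM with ALX-5407 and rose by 0.45 on the log2 scale (adjusted p = 0.000167). Socs5 rose by 0.68 (adjusted p = 0.000224) from a low level of 8.14, 8.48 and 8.84 CPM to 12.1, 14.5 and 14.2 CPM. Socs6 and Socs7 were not called, with log2 fold changes of 0.11 and 0.09.

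**Figure D3:**
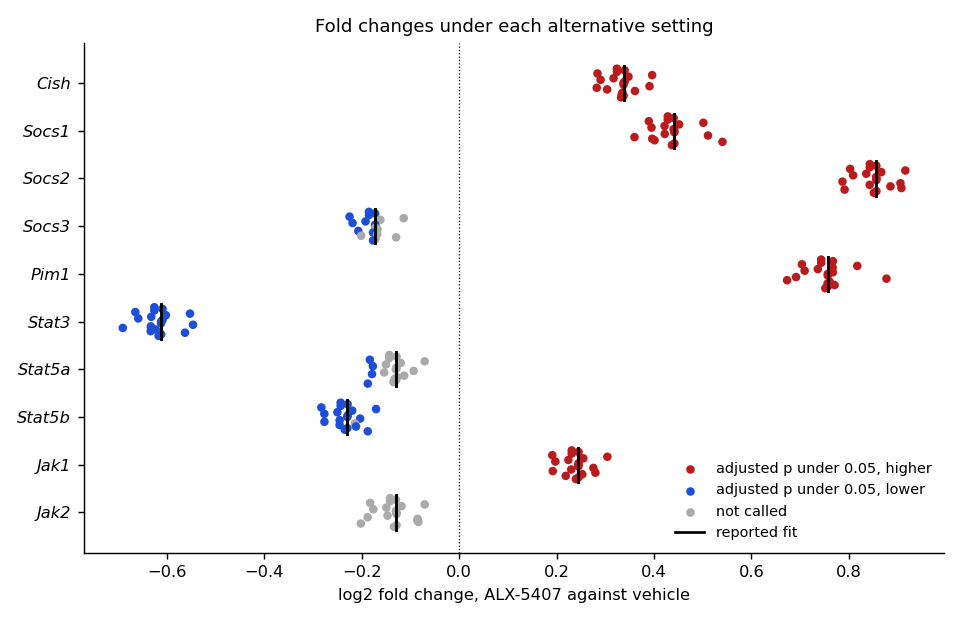
Log2 fold change of the 10 genes under each alternative setting, ALX-5407 against vehicle, as points (red for called higher, blue for called lower, grey for not called), with a black line for the reported fit. For Stat5a and for Stat5b, 1 point is the fit of their summed counts. No point lies on the other side of 0 from its reported value.

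To compare levels between genes, CPM were divided by the gene length in kilobases given in the file. On this scale the vehicle means of the 10 genes ran from 3.83 ± 0.325 for Socs2 to 107 ± 16.3 for Pim1 (CPM per kilobase, SD, n = 3). Pim1, Stat5b (98.8 ± 4.45), Stat3 (97.5 ± 9.19) and Jak2 (87.8 ± 6.60) came first with the lengths of the file, and the vehicle ranges of neighbours in this order overlapped. Socs3 (67.0 ± 1.87), Stat5a (54.1 ± 2.97), Jak1 (48.1 ± 2.50), Cish (29.2 ± 2.16), Socs1 (14.4 ± 1.49) and Socs2 followed in that order, each apart from the next in the vehicle libraries. Socs2 stood at percentile 48.8 of the vehicle levels of all genes tested, and the other members between percentile 77.9 and percentile 97.4. These levels depend on the lengths used. For Pim1 the file gives 2638 bases, whereas the merged exons in GENCODE M21 cover 3362 bases, with which its vehicle mean is 83.8 ± 12.8 CPM per kilobase and its place in the order is 4 instead of 1.

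Summed per length, the 8 SOCS genes made up 134 ± 2.60 CPM per kilobase with vehicle and 147 ± 4.24 with ALX-5407 (SD, n = 3 per group). Socs3 held 49.8%, 49.2% and 51.2% of it in the vehicle libraries and 41.0%, 41.2% and 39.5% in the ALX-5407 libraries. The share of Cish went from 21.8% ± 1.18 to 25.2% ± 0.838, that of Socs1 from 10.8% ± 1.21 to 13.4% ± 1.32, and that of Socs2 from 2.86% ± 0.295 to 4.73% ± 0.525. Within the PIM family Pim1 held 42.6%, 50.6% and 48.0% of the sum with vehicle and 66.8%, 65.6% and 68.5% with ALX-5407. The share of Jak1 in the sum of the 4 JAK genes went from 16.4% ± 1.13 to 20.6% ± 0.964. These shares were given no test of their own, and their size depends on the lengths of the file. For Pim1, Socs5 and Socs6 these are 2638, 4392 and 8225 bases. The merged exons in GENCODE M21 cover 3362, 6416 and 11349 bases.

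**Figure D4:**
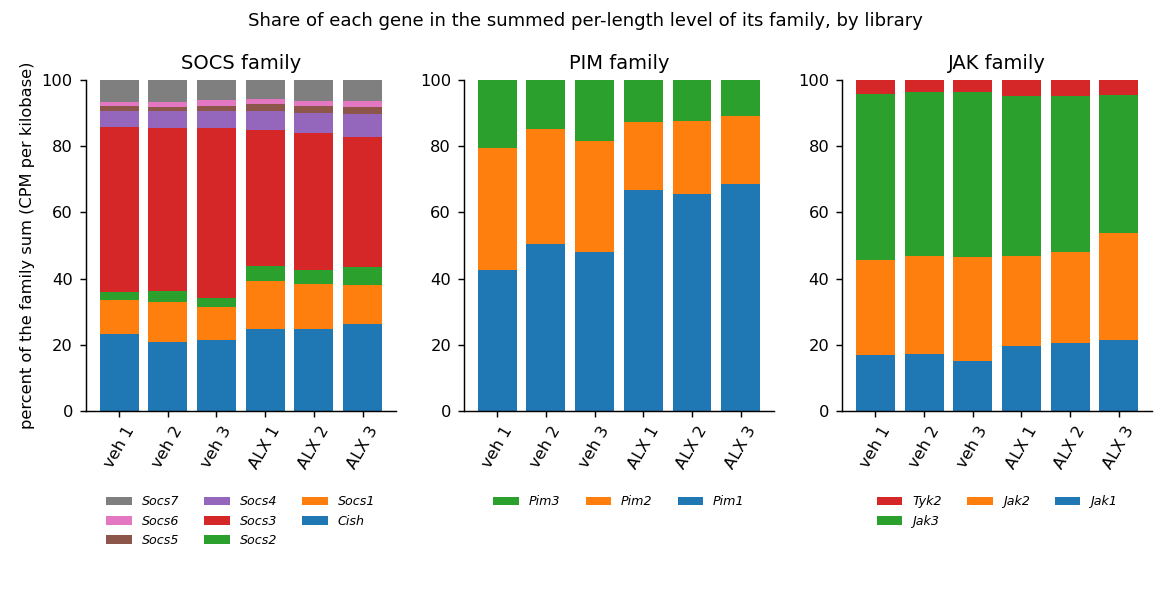
Share of each gene in the summed per-length level of its family, in percent, for the SOCS, PIM and JAK families in the 3 vehicle libraries (veh) and the 3 ALX-5407 libraries (ALX). The Pim1 share is larger, and the Socs3 share smaller, in each ALX-5407 library than in any vehicle library.

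Ratios between related genes within a library do not depend on the scaling between libraries, and 4 of them were tested by an exact two-sided permutation test over the 6 libraries. The ratio of Socs1 to Socs3, per length, was 0.209, 0.247 and 0.192 with vehicle and 0.352, 0.334 and 0.301 with ALX-5407, a log2 difference of 0.61. Cish to Socs2 was 9.06, 6.64 and 7.44 with vehicle and 5.38, 5.76 and 4.93 with ALX-5407, a log2 difference of -0.52. Jak1 to Jak2 was 0.586, 0.586 and 0.481 with vehicle and 0.719, 0.749 and 0.670 with ALX-5407, a log2 difference of 0.38. Stat5a to Stat5b shifted least, from 0.554, 0.541 and 0.545 to 0.585, 0.572 and 0.603, a log2 difference of 0.10. In each of the 4 ratios the groups did not overlap, and each gave p = 0.1 in the exact permutation test, the smallest value that 3 libraries against 3 allow (also 0.1 after adjustment over the 4 ratios), so none could pass 0.05.

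The genes whose pattern over the 6 libraries was most like that of a member were sought among the 12117 genes with a mean of at least 50 counts. Likeness was the root mean square difference of the 6 values of log2(CPM + 0.5), each centred on the vehicle mean of its gene. Closest to Socs2 were Cerk, Naa50 and Pwp2, with differences of 0.042, 0.048 and 0.049, where the median over all genes compared was 0.596. Closest to Stat3 were Dennd4b, Ccdc58 and Inha, with differences of 0.018, 0.040 and 0.042 and a median of 0.497. Dennd4b went from 219, 201 and 189 CPM with vehicle to 137, 138 and 124 CPM with ALX-5407, a log2 fold change of -0.61.

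The rest of the pathway was described by lists, and the median log2 fold change over all genes tested was 0.01. Over the 131 genes of all lists that were tested and are not among the 10, 53 were higher (40.5%) and 42 were lower (32.1%). Of all genes tested, 24.5% were higher and 23.2% lower. Among 12 other negative regulators of JAK-STAT signalling, 2 were higher and 4 were lower, with a median of -0.04. That is 50% called, near the 47.7% of all genes tested. Usp18, which restrains type I interferon receptors, went from 32.7, 31.3 and 33.0 CPM to 16.5, 13.1 and 15.1 CPM (log2 fold change -1.12, adjusted p = 2.22e-07). Ptpn2, a phosphatase that acts on JAK1, JAK3 and STAT proteins, went from 220, 232 and 237 CPM to 139, 137 and 134 CPM (log2 fold change -0.75, adjusted p = 2.4e-07). The ubiquitin ligase gene Cbl rose by 0.49 and the STAT inhibitor gene Pias2 fell by 0.43 on the log2 scale (adjusted p = 6.08e-05 and 0.000195). Ptpn11, with a log2 fold change of 0.21 (adjusted p = 0.0265), lost its call under upper quartile scaling (adjusted p = 0.0848), among protein-coding genes (adjusted p = 0.0678), and without vehicle replicate 1 or 3 or any ALX-5407 replicate (adjusted p up to 0.105). Sh2b3, with -0.27 (adjusted p = 0.0274), lost it with library totals alone (adjusted p = 0.0853) and without vehicle replicate 1 or ALX-5407 replicate 1 (adjusted p = 0.0830 and 0.172).

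SOCS proteins recruit a ubiquitin ligase through their SOCS box, and 4 genes of that complex were tested. Cul5, its scaffold, rose by 0.42 on the log2 scale (adjusted p = 0.000664). Rnf7, its RING subunit, and Eloc, which encodes elongin C, fell by 0.50 and 0.37 (adjusted p = 2e-05 and 0.000940). Elob, for elongin B, was at 91.9, 89.3 and 113 CPM with vehicle and 112, 112 and 92.4 CPM with ALX-5407 and was not called.

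Of 41 receptor chains coupled to JAK kinases, 33 were tested, with 10 higher, 11 lower and a median log2 fold change of -0.01. The share called was 63.6%, beside 47.7% of all genes tested. Il12rb1, the chain shared by the IL-12 and IL-23 receptors, went from 132, 120 and 141 CPM to 241, 250 and 240 CPM (log2 fold change 0.89, adjusted p = 1.04e-07), while Il23r, specific to IL-23, went from 20.6, 17.9 and 26.0 CPM to 4.90, 4.91 and 5.85 CPM (log2 fold change -2.04, adjusted p = 1.91e-08). Both chains of the IFN-γ receptor fell, Ifngr1 by 0.55 and Ifngr2 by 0.73 on the log2 scale (adjusted p = 2.59e-05 and 3.77e-05). Il6st, which encodes gp130, and Il13ra1 rose by 0.51 and 0.60 (adjusted p = 3.62e-05 and 0.000182).

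Of 32 cytokines that signal through such receptors, 18 were tested, with 6 higher, 8 lower and a median log2 fold change of -0.39. The share called was 77.8%, beside 47.7% of all genes tested. Ifng, the signature cytokine of Th1 cells, went from 551, 665 and 764 CPM to 400, 383 and 364 CPM (log2 fold change -0.79, adjusted p = 5.75e-06). Il10, which restrains inflammation, went from 34.7, 33.5 and 41.0 CPM to 89.6, 81.6 and 78.7 CPM (log2 fold change 1.19, adjusted p = 2.98e-08). Il24 and Il3 fell by 1.75 and 3.54 on the log2 scale (adjusted p = 1.04e-10 and 1.15e-08). Il3 was low, with a mean of 8.06 CPM with vehicle and 36, 21 and 17 counts with ALX-5407. Clcf1 fell by 0.85 (adjusted p = 2.09e-06), and Il23a rose by 2.06 from a mean of 0.973 CPM (adjusted p = 5.78e-06).

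**Figure D5:**
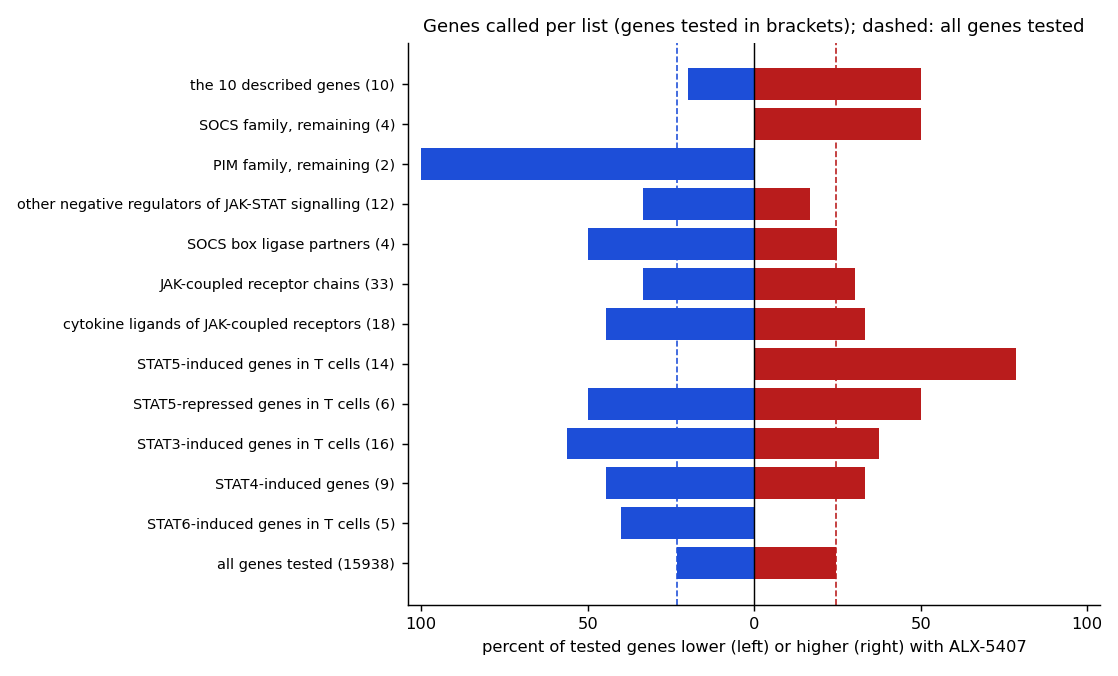
Percent of tested genes called lower (blue, to the left) and higher (red, to the right) with ALX-5407 in each list, with the number of genes tested in brackets. The dashed lines mark the 23.2% lower and 24.5% higher among all 15938 genes tested. The list of genes induced by STAT5 has a bar to the right only.

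Genes known to be induced by a STAT differed in how they were called. Of 14 genes induced by STAT5 in T cells, a list that leaves out the 10 genes described, 11 were higher and 0 were lower. Their median log2 fold change was 0.42. That is 78.6% called higher, beside a background of 24.5%, and 0% called lower, beside 23.2%. The list was chosen with earlier results of these data known, which limits what its one-sided count can show. DESeq2 and limma-voom also called 0 of them lower, but they used the same counts and the same list, so this is no independent check. The survival gene Bcl2 went from 310, 304 and 292 CPM to 597, 612 and 600 CPM (log2 fold change 1.00, adjusted p = 1.09e-08). Ccnd2, a G1 cyclin, and Myc, a regulator of growth, rose by 0.58 and 0.57 on the log2 scale (adjusted p = 7.08e-06 and 1.62e-05). Prf1 and Gzmb, for the cytotoxic proteins perforin and granzyme B, rose by 0.84 and 0.61 (adjusted p = 3.17e-07 and 5.5e-05), and Foxp3 rose by 0.73 (adjusted p = 0.000204). Il4ra, Mcl1 and Il12rb2 were not called.

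The 6 genes repressed by STAT5 were split, with 3 higher (Il6st, Tcf7 and Il6ra) and 3 lower (Il17a, Il7r and Bcl6). All 6 were thus called, beside 47.7% of all genes tested. Tcf7, a factor of naive and memory cells, rose by 0.36 (adjusted p = 0.00486), and Il7r fell by 0.35 (adjusted p = 0.000707). Over the libraries left out in turn, the log2 fold change of Tcf7 ran from 0.235 to 0.458, with adjusted p-values up to 0.0249. Il17a was at 2.06, 2.55 and 3.64 CPM with vehicle and 0.170, 0.375 and 0.171 CPM with ALX-5407 (log2 fold change -3.49, adjusted p = 1.91e-06). The call of Bcl6 (log2 fold change -0.64, adjusted p = 0.0103) was lost without ALX-5407 replicate 1 (adjusted p = 0.0546). That of Il6ra (log2 fold change 0.22, adjusted p = 0.0332) was lost under upper quartile scaling (adjusted p = 0.0967), among protein-coding genes (adjusted p = 0.0756), and without vehicle replicate 2 or 3 or any ALX-5407 replicate (adjusted p up to 0.141).

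The 16 genes induced by STAT3 moved both ways, with 6 higher, 9 lower and a median log2 fold change of -0.27. The share called was 93.75%, beside 47.7% of all genes tested. Prdm1, which encodes the repressor Blimp-1, rose from 18.6, 20.1 and 18.3 CPM to 92.4, 96.1 and 80.7 CPM (log2 fold change 2.24, adjusted p = 4.47e-11). Maf rose by 1.30 on the log2 scale (adjusted p = 3.21e-09), beside Il10. The Th17 genes Ahr and Rora fell by 1.52 and 0.68 (adjusted p = 7.14e-08 and 1.79e-06), beside Il23r.

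Genes induced by STAT4 were divided, with 3 higher and 4 lower of 9 (77.8% called, beside 47.7% of all genes tested). The homeobox gene Hlx rose by 1.81 (adjusted p = 7.74e-09), and Furin and Tbx21, the gene of the Th1 factor T-bet, rose by 0.66 and 0.34 on the log2 scale (adjusted p = 2.29e-06 and 0.000941). Il18r1 and Il18rap, both chains of the IL-18 receptor, fell by 0.76 and 0.57 (adjusted p = 1.2e-06 and 0.000625), as did Ifng. Of 5 tested genes induced by STAT6, 0 were higher in edgeR, and Il24 and Il13 were lower (40% called). Il13 fell by 1.42 (adjusted p = 0.000123), while Gata3, Il4 and Il4ra were not called.

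Markers of cells other than T cells were low, and some lists moved with the treatment. The 7 B cell markers summed to 10.9 ± 0.778 CPM with vehicle and 17.9 ± 1.61 CPM with ALX-5407 (SD, n = 3), with Cd22 as the most abundant over all libraries and 5 of 7 genes higher. The 8 macrophage and monocyte markers summed to 37.0, 40.0 and 31.1 CPM against 17.1, 16.8 and 17.2 CPM. Of this sum, Ly6c2 and Cd68 made up nearly everything. The 6 neutrophil markers summed to 71.3, 75.3 and 69.9 CPM against 31.6, 24.1 and 25.3 CPM, almost wholly from Ly6g, with S100a8, S100a9, Elane and Retnlg at 0 in all libraries. The 2 markers of CD8 T cells, also low, summed to 9.41 and 7.71 CPM on average, with Cd8b1 on top, and the 5 NK cell markers to 14.3 and 15.6 CPM, mostly Klrd1. Dendritic cell markers (4.57 and 3.43 CPM, mostly Zbtb46, with Siglech at 0) were close to nothing. The 4 regulatory T cell markers (Foxp3, Ikzf2, Il2ra and Ctla4) were not low, with sums of 3256 and 3796 CPM, mostly from Il2ra, which activated T cells express as well. Of the 4, 3 were called higher and 1 lower, namely Ctla4, at 988, 971 and 978 CPM with vehicle and 771, 741 and 629 CPM with ALX-5407. What part these cells have in the levels of the 10 genes was not tested.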

How the data were processed

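RNA was measured in 6 libraries, 3 per group, grouped by their labels. The authors deposited raw counts of reads per gene, with no normalization. Per the submitters' processing notes, the tools were fastp, HISAT2 2.0.5 and featureCounts 1.5.0-p3 on mm10. The strand setting and the treatment of reads with several matches are not given in the sources used here.

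The counts were tested with edgeR 4.0.16 in R 4.3.3 (filterByExpr with a minimum count of 10 and a total of 15, TMM, quasi-likelihood F test, Benjamini-Hochberg adjustment over all genes tested), after the script had been tested on simulated data. DESeq2 1.42.0, limma-voom (limma 3.58.1), other scalings, filters, gene selections, a replicate block and each library left out were tried as alternatives, of which 2 (mitochondrial genes, and mitochondrial with ribosomal protein genes, left out) were added after seeing the data. The 95% intervals use the t distribution of that test. Annotation came from GENCODE M21.

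The members and lists were chosen with earlier results of these data known. Named were the 10 genes, the rest of their families, and up to 6 called genes with the smallest p in each other list. Some genes and lists are not reported here. Likeness was computed for the called riser and the called faller with the smallest p. At 30801753 to 36727788 counts per library, genes under 50 counts have wide errors.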

Additional observations from a re-analysis of the deposited data

How the results depend on the processing

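No direction reversed under any alternative. Of 190 values of the 10 genes under alternatives, 174 kept their direction and their side of the threshold, and Socs1, Socs2, Cish, Pim1, Stat3 and Jak1 were called in all 19 settings. For Stat5a and Stat5b, 1 of the 19 is their sum. The causes of the other changes were not tested.

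Socs3 was called lower by DESeq2 (-0.185), limma-voom (-0.172), RLE (-0.185), upper quartile (-0.225) and CPM filter (-0.192) settings, among protein-coding genes (-0.219), with robust dispersion (-0.172), and with mitochondrial and ribosomal protein genes left out (-0.177, a choice made after seeing the data). With a replicate block it was called too (-0.172, adjusted p = 0.0447). The block changed no other call among the 10 genes. Deviations of same-numbered libraries correlated at -0.0084, 0.0036 and 0.063, and those of differently numbered libraries at -0.061 to 0.066. Whether libraries of the same number share an animal or a batch is not given, and these correlations cannot decide it. Stat5a was called lower with upper quartile scaling (-0.183) and among protein-coding genes (-0.177). The summed counts of Stat5a and Stat5b, mostly from Stat5b, were called lower (-0.187), which is no call of Stat5a by itself. With libraries left out in turn, log2 fold changes ran from -0.207 to -0.129 for Socs3, -0.179 to -0.093 for Stat5a and -0.276 to -0.203 for Stat5b.

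The members called lower numbered 4 with upper quartile scaling and among protein-coding genes, and 1 to 4 with libraries left out. All genes called lower numbered 3695 in the reported fit and 3220 to 3851 with libraries left out. Upper quartile scaling moved the median log2 fold change of all genes tested to -0.048, from 0.005 in the reported fit. Other negative regulators called higher numbered 1 with upper quartile scaling and among protein-coding genes, and 1 to 2 with libraries left out. PIM genes called lower numbered 1 to 2 with libraries left out. Genes induced by STAT6 called higher numbered 1 with library totals alone and 0 to 1 with libraries left out.

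With an absolute log2 fold change over 1 required, 536 genes were higher and 1064 lower, with 12 and 12 of the other list genes and 0 and 0 of the members. Higher were 0 of the remaining SOCS, negative regulator, ligase partner, STAT5-induced and STAT5-repressed genes, 2 receptors, 3 STAT3-induced genes and 1 STAT4-induced gene. Lower were 1 STAT gene, 0 PIM genes, 1 negative regulator, 0 ligase partners, 2 receptors, 5 cytokines, 1 STAT5-repressed, 4 STAT3-induced and 0 STAT4-induced genes.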
